A study of Sus scrofa with 2 samples.

Results

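Osteoclasts, the cells that resorb bone, were followed here through 10 genes of their lineage: the ligand TNFSF11 with its receptor TNFRSF11A and decoy receptor TNFRSF11B, the receptors OSCAR and CALCR, the fusion genes DCSTAMP and OCSTAMP, and the resorption effectors ACP5, CTSK and MMP9. The genes were taken by name from a table of 27622 features, and all 10 were found, 9 by the deposited symbol and OCSTAMP, whose symbol cell held no name, by its Ensembl pig name. RNA-seq was performed on cochlear lateral wall that held the stria vascularis (SV), in Rongchang pigs with 1 library for the genotype Mitf R/r (heterozygous) and 1 for Mitf r/r (homozygous). The samples are called SV below, as in the study, but were lateral wall and not isolated stria. The r allele carries insertions in the melanocyte promoter of Mitf, the r/r pigs are albino and deaf, and the R/r pig used as the control carries 1 r allele as well. The labels give the age of both pigs as postnatal day 1, whereas the study's text places the RNA-seq before birth.

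Osteoclasts arise from precursors of the macrophage lineage when TNFSF11 (RANKL), made by osteoblasts, osteocytes and stromal cells, binds TNFRSF11A (RANK) on the precursor. TNFRSF11B (osteoprotegerin) is a soluble decoy that takes up the ligand, and the soft tissues of the cochlea are known to make it in quantity. Precursors then fuse through DCSTAMP and OCSTAMP, and the mature cell secretes acid, the protease cathepsin K and tartrate-resistant acid phosphatase onto bone. MITF and its relatives TFE3 and TFEB switch on several of these genes, and some Mitf mutations in mice cause osteopetrosis, a failure of bone resorption. Osteoclasts use mainly isoforms of MITF other than MITF-M, the melanocyte isoform.

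With 1 library per genotype there was no replicate and no test, so the values compare these libraries and not the genotypes. Expression was given as RPKM, which scales reads to the length of a gene and to the depth of a library, and reads recovered from these values gave totals of 15829244 for the heterozygous and 14258672 for the homozygous library. Differences were log2 ratios of RPKM, r/r over R/r, with exact 95% intervals that cover counting error only. Features above 0 in both libraries with at least 1 RPKM in at least one of them were compared, and these numbered 16331, with a median log2 ratio of -0.02. A ratio was called at 2-fold, the fold threshold of the study, or separately where its counting interval excluded no change. The study listed its 2-fold genes with p values, which the calls here did not use. MITF, the mutated gene, had 51.7 RPKM in the heterozygous SV and 37.8 RPKM in the homozygous SV in its highest feature (log2 ratio -0.45, -0.75 to -0.16). This value does not separate MITF-M from the other isoforms. The study counted its RNA-seq reads by exon and reported a lower level of the M exon in the r/r SV. By RT-PCR it saw no obvious difference in the A and H isoforms between R/R and r/r cochlea. In these bulk samples, fewer cells of a type and less RNA per cell cannot be told apart.

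The osteoclast genes fell into 3 levels. TNFRSF11B, CTSK and MMP9 were among the more abundant RNAs of the lateral wall samples, with over 1000 reads each. TNFRSF11A, CALCR and ACP5 were between 2.10 and 8.56 RPKM. TNFSF11, DCSTAMP, OSCAR and OCSTAMP had between 0 and 7 reads over both libraries together, so that the genes for cell fusion and the osteoclast receptor OSCAR were at or near 0 in both SVs. The 10 genes are therefore described as a set of genes and not as a cell population. Of the 10 genes, 6 could be compared, and 0 of them were at least 2-fold apart, beside 3.99% of all features compared (2.2% lower and 1.78% higher). The intervals of 2 genes, MMP9 and TNFRSF11B, lay below no change, beside 14.5% of all features, and that of 1 gene, CALCR, lay above it, beside 11.2%. Together these are 3 of 6 genes, beside 25.7% of all features, and this share rises with reads, to 41.9% of features with at least 1000 reads.

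**Figure D1:**
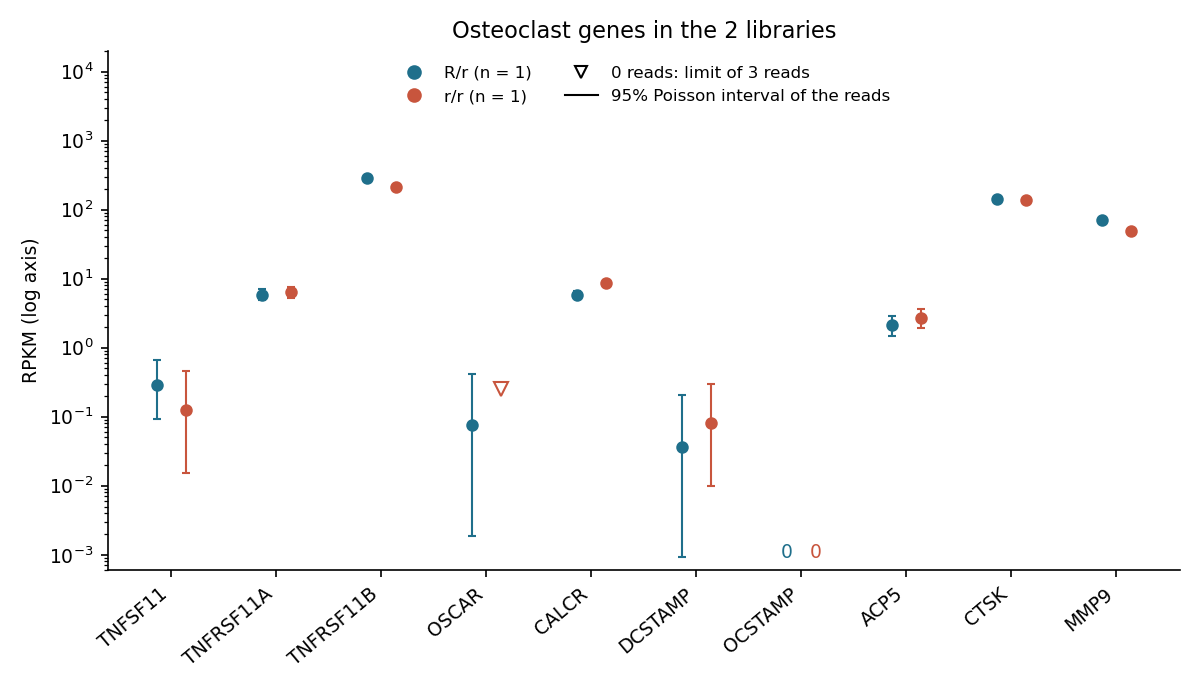
RPKM (log axis) of the 10 osteoclast genes in the R/r library (blue) and the r/r one (red), 1 library each, with 95% Poisson intervals of the recovered reads that cover counting error only. TNFRSF11B, CTSK and MMP9 stand highest, from 49.7 to 287 RPKM, and TNFSF11, OSCAR and DCSTAMP lie below 0.3 RPKM. An open triangle marks the limit of 3 reads for OSCAR, without reads in the r/r library, and OCSTAMP is written as 0 in both.

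The order of the levels per length in the heterozygous SV was TNFRSF11B, CTSK, MMP9, TNFRSF11A, CALCR, ACP5, TNFSF11, OSCAR, DCSTAMP and OCSTAMP. TNFRSF11B stood 2.03 times above CTSK (95% interval 1.95 to 2.11), and CTSK 1.98 times above MMP9 (1.88 to 2.08). TNFRSF11A and CALCR, at 5.88 and 5.87 RPKM, did not differ beyond counting error (CALCR at 0.998 times TNFRSF11A, 0.81 to 1.24). TNFSF11, OSCAR and DCSTAMP could not be ordered among themselves, as the intervals of neighbours spanned 1. In the homozygous SV the order was kept down to MMP9, and the receptor CALCR then stood 1.35 times above TNFRSF11A (1.10 to 1.66).

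The ligand and its receptors were first compared. TNFSF11 (ENSSSCG00000009429) had 0.285 RPKM in the heterozygous SV, from 5 reads, and 0.126 RPKM in the homozygous SV, from 2 reads. Its log2 ratio of -1.17 had an interval from -4.56 to 1.44, so that no difference was detectable at this depth. TNFRSF11A (ENSSSCG00000004898), the receptor that starts osteoclast formation, had 5.88 RPKM in the heterozygous SV and 6.34 RPKM in the homozygous SV, from 135 and 131 reads. These levels were close, with a log2 ratio of 0.11 (-0.25 to 0.46).

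TNFRSF11B (ENSSSCG00000020707), the decoy receptor, had 287 RPKM in the heterozygous SV and 210 RPKM in the homozygous SV, from 6766 and 4466 reads. It was the highest of the 10 genes in both libraries, and 98.8% of the features detected in the heterozygous SV had a lower RPKM. Its level in the homozygous SV was 0.733 times that in the heterozygous SV (0.705 to 0.761), a log2 ratio of -0.45 (-0.50 to -0.39). Among 5281 features with at least 1000 reads, 2.46% had a lower ratio, while 22.2% had an interval below no change and 19.7% above.

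A further feature, ENSSSCG00000027762, carries the deposited name CU633166.1 but is called TNFRSF11B in the later Ensembl name table, and was looked at after the values were seen. It had 68.9 RPKM in the heterozygous SV and 68.0 RPKM in the homozygous SV, a log2 ratio of -0.02 (-0.12 to 0.08). The ratios of these features thus differed, by a log2 difference of -0.43 (-0.54 to -0.32). Summed, they had 8597 and 6093 reads, for a log2 ratio of -0.35 (-0.39 to -0.30). The value of TNFRSF11B thus depended on which feature was read, and how the counting split the reads between them is not given in the sources used here. Unless stated otherwise, comparisons of TNFRSF11B used only the feature deposited under that name.

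The decoy receptor far outnumbered the ligand in both SVs. The RPKM of TNFRSF11B was 1007 times that of TNFSF11 in the heterozygous SV (431 to 3104) and 1662 times in the homozygous SV (460 to 13731). The ligand to decoy ratio differed between the libraries by a log2 value of -0.72 with an interval from -4.12 to 1.89, which spans no change because of the 7 ligand reads. TNFRSF11B also stood 48.7 times above the receptor TNFRSF11A in the heterozygous SV (41.1 to 58.2) and 33.2 times in the homozygous SV (27.9 to 39.8). The log2 ratio of TNFRSF11A exceeded that of TNFRSF11B by 0.56 (0.19 to 0.92), so receptor and decoy differed beyond counting error.

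Of the fusion genes, DCSTAMP (ENSSSCG00000006043) had 0.0370 RPKM from 1 read in the heterozygous SV and 0.0822 RPKM from 2 reads in the homozygous SV. OCSTAMP (ENSSSCG00000007448) was listed at 0 in both libraries, which allows up to 3 reads in each. OSCAR (ENSSSCG00000003259), an immunoglobulin-like receptor that gives osteoclast precursors a costimulatory signal, had 0.0747 RPKM from 1 read in the heterozygous SV and 0 in the homozygous SV, where the limit set by 0 reads was 0.249 RPKM. No fold is given for these 3 genes, as both libraries were at or under 3 reads.

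CALCR (ENSSSCG00000015320), the receptor through which calcitonin stops resorption, had 5.87 RPKM in the heterozygous SV and 8.56 RPKM in the homozygous SV, from 277 and 364 reads. It was the gene with the highest ratio of the 6 compared, 1.46 times the heterozygous level (1.24 to 1.71), with a log2 ratio of 0.54 (0.32 to 0.78). Among 7582 features with at least 100 and under 1000 reads, 3.09% had a higher ratio, and 21.3% had an interval that excluded no change (13.0% below and 8.28% above). CALCR and TNFRSF11A, both receptors of the osteoclast lineage and level with each other in the heterozygous SV, differed in their log2 ratios by -0.44 (TNFRSF11A minus CALCR), with an interval, -0.87 to -0.01, that came close to no difference.

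The effectors of resorption differed in their ratios. CTSK (ENSSSCG00000006647), the collagen-cutting protease of osteoclasts that fibroblasts can also make, had 141 RPKM in the heterozygous SV and 138 RPKM in the homozygous SV, from 3524 and 3089 reads. Its log2 ratio was -0.04 (-0.11 to 0.03), so that a difference beyond 0.927 or 1.02 times the heterozygous level lay outside the counting interval. ACP5 (ENSSSCG00000013612), tartrate-resistant acid phosphatase, the classical stain of osteoclasts, had 2.10 RPKM in the heterozygous SV and 2.65 RPKM in the homozygous SV, from 37 and 42 reads. Its log2 ratio of 0.33 had an interval from -0.34 to 1.01.

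MMP9 (ENSSSCG00000007436), a gelatinase made by osteoclasts and also stored by neutrophils, had 71.4 RPKM in the heterozygous SV and 49.7 RPKM in the homozygous SV, from 2842 and 1781 reads. It had the lowest ratio of the 6 genes, 0.696 times the heterozygous level (0.655 to 0.738), with a log2 ratio of -0.52 (-0.61 to -0.44). Among the 5281 features with at least 1000 reads, 1.63% had a lower ratio. MMP9 and CTSK, the proteases of the set, differed in their log2 ratios by 0.48 (CTSK minus MMP9, 0.37 to 0.60), and the RPKM of CTSK was 1.98 times that of MMP9 in the heterozygous SV and 2.77 times in the homozygous SV (2.61 to 2.94).

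Of 15 pairs among the 6 genes, 10 had an interval of the difference that excluded 0. The same share over pairs of all features was not computed, so the count is not a result about the osteoclast genes. Intervals for counting error alone often exclude no change where reads are many, as for 41.9% of single features with at least 1000 reads. The largest difference in this set was that of CALCR and MMP9, 1.07 on the log2 scale (0.82 to 1.31). TNFRSF11B, in the feature deposited under that name, and MMP9 did not differ beyond counting error (0.07, -0.03 to 0.18). With the further feature added, TNFRSF11B had a ratio of -0.35 (-0.39 to -0.30). This interval did not overlap that of MMP9 (-0.61 to -0.44). ACP5, with the fewest reads of the 6, could not be separated from TNFRSF11A, CALCR or CTSK, and was separated from MMP9 by 0.86 (0.18 to 1.54).

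**Figure D2:**
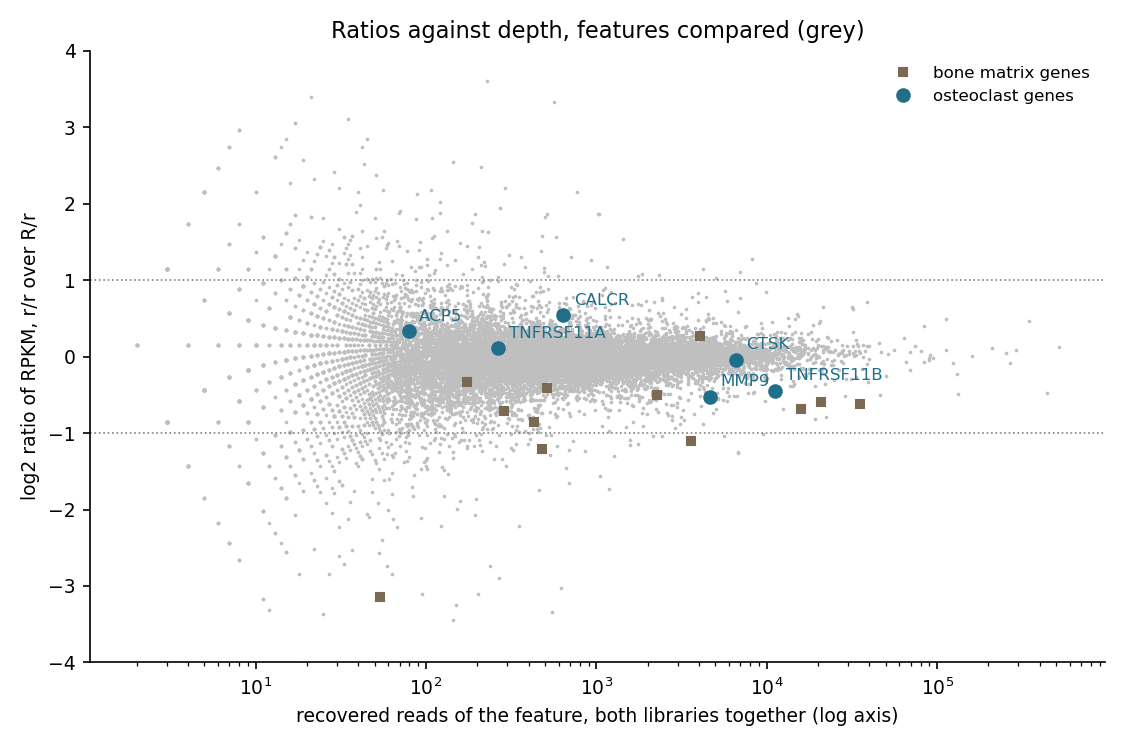
Log2 ratio of RPKM, r/r over R/r, against the recovered reads of each feature over both libraries (log axis), for the 16331 features compared (grey), the bone matrix genes (brown squares) and the osteoclast genes (blue). The dotted lines mark 2-fold, and 21 features lie outside the plotted range of 4 log2 units either way. The spread narrows with reads: MMP9 and TNFRSF11B sit at the lower edge of the deep features, CTSK in the middle and CALCR near the upper edge.

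The osteoclast genes were next set against the bone matrix, since osteoclasts work on bone and the bony wall adjoins the tissue dissected. Most bone matrix genes had lower levels in the homozygous SV. Of 12 genes listed, all 12 were compared, 11 had a log2 ratio below 0, and 10 had an interval below no change, beside 14.5% of all features. Their median log2 ratio was -0.65, and 3 of them (COL1A1, DMP1 and MEPE) were at least 2-fold lower, beside 2.2% of all features. The study's own list of differing genes holds DMP1 but not COL1A1 or MEPE. The list was chosen with earlier results of these data known, so that its direction is a description.

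Type I collagen was lower in both chains, COL1A1 from 89.1 to 38.5 RPKM (log2 ratio -1.21, -1.51 to -0.92) and COL1A2 from 277 to 180 RPKM (-0.62, -0.65 to -0.59). IBSP, bone sialoprotein, had 431 RPKM in the heterozygous SV and 268 RPKM in the homozygous SV. BGLAP, osteocalcin, had 48.9 and 29.9 RPKM, and SPARC, osteonectin, 1759 and 1170 RPKM. The osteocyte genes DMP1 (log2 ratio -1.11), PHEX (-0.85) and MEPE (-3.14, from 49 and 5 reads) stood below the median of the list. So did COL1A1, BGLAP and IBSP, and the place below the median was thus not particular to osteocyte genes. ALPL, the alkaline phosphatase of mineralizing cells, had a ratio of -0.41 (-0.67 to -0.15), OMD -0.50, and PHOSPHO1 -0.34 (-0.79 to 0.11). SPP1, osteopontin, a matrix protein that osteoclasts also make and attach to, was the exception, higher at 0.27 (0.18 to 0.36).

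The compared osteoclast genes had log2 ratios above the bone matrix median, as most features did. Their 6 log2 ratios had a median of 0.03, which was 0.68 above the bone matrix median, and each of the 6 exceeded that median, beside 94.7% of all features compared. The distance is thus one between the bone matrix and features in general, whose median was -0.02, and is not particular to the osteoclast genes. With RPKM summed over each list, which lets the abundant TNFRSF11B, CTSK and MMP9 count most, the distance was 0.29. CALCR and ACP5 had a higher ratio than all 12 bone genes, TNFRSF11A and CTSK than 11 of them, TNFRSF11B than 9 and MMP9 than 8. Of all features compared, 13.1% had a ratio below that of PHOSPHO1, the highest bone gene after SPP1, and 87.2% below that of SPP1. A ratio above 11 of the bone genes was thus common. These ranks compare point values, and the interval of ACP5 (-0.34 to 1.01) spanned that of SPP1. Over the pooled reads of the bone genes, 52545 in the heterozygous SV and 31266 in the homozygous SV, the log2 ratio was -0.60 (-0.62 to -0.58). Against this pooled value 5 of the 6 genes were higher beyond counting error, beside 73.8% of all features and 97.8% of those with at least 1000 reads. They were higher by 1.14 for CALCR (0.91 to 1.37), 0.93 for ACP5 (0.26 to 1.61), 0.71 for TNFRSF11A (0.35 to 1.06), 0.56 for CTSK (0.49 to 0.63) and 0.15 for TNFRSF11B (0.09 to 0.21). MMP9 was 0.07 higher, with an interval from -0.01 to 0.16, and was thus not separated from the pooled bone matrix reads. SPARC, COL1A2 and IBSP supplied most of the pooled reads, and the part of the amount of bone in each library in these differences was not tested.

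**Figure D3:**
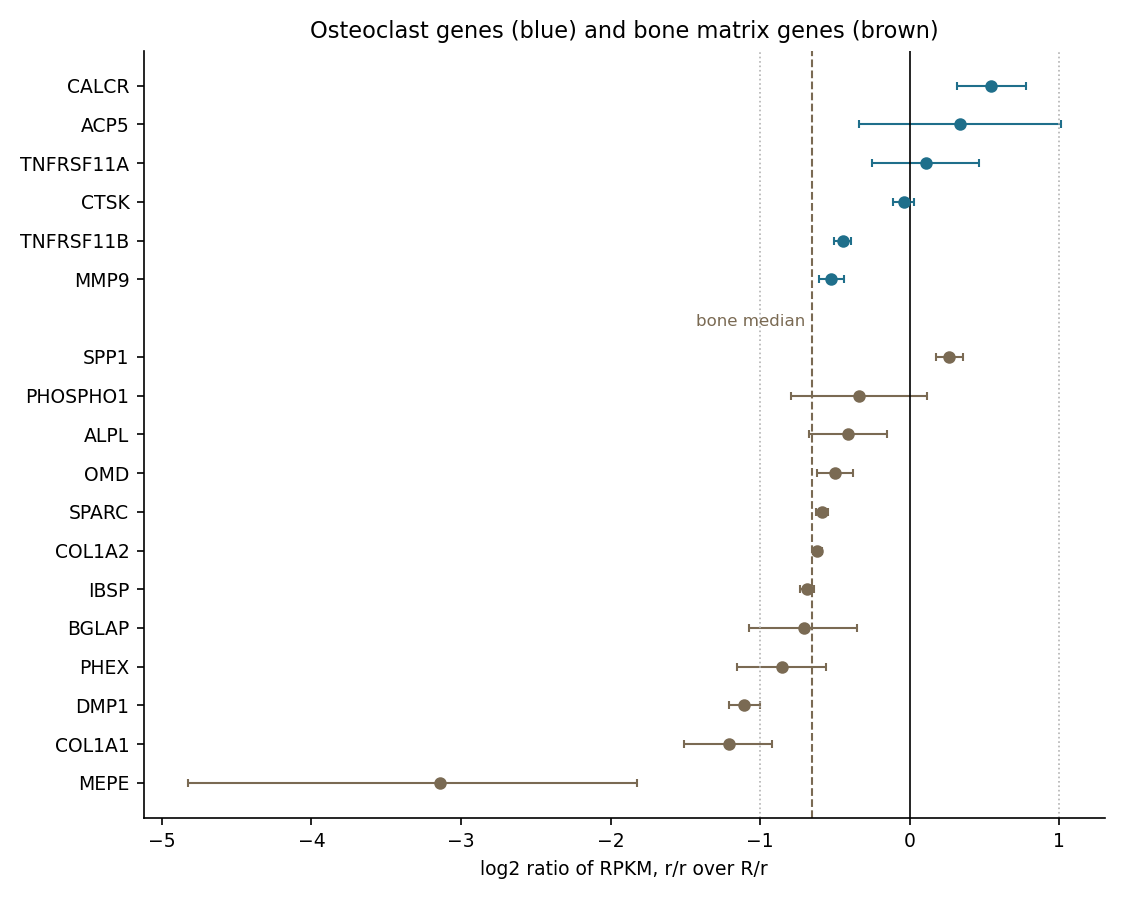
Log2 ratio of RPKM, r/r over R/r, with exact 95% counting intervals, for the 6 osteoclast genes compared (blue) and the 12 bone matrix genes (brown), 1 library per genotype. The solid line marks no change, the dashed line the bone matrix median of -0.65, and the dotted lines 2-fold. All 6 osteoclast points lie to the right of the dashed line, as do 94.7% of all features compared, with MMP9 and TNFRSF11B nearest to it, and SPP1 is the only bone point above 0.

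Genes that make and regulate bone-forming cells lay between these groups. Of 9 osteoblast and osteocyte genes compared, 5 had an interval below no change, beside 14.5% of all features, and 0 above, beside 11.2%. Their median log2 ratio was -0.21. SOST, an osteocyte inhibitor of bone formation, was lowest with 7.91 and 4.28 RPKM (log2 ratio -0.89, -1.48 to -0.32), followed by SP7, an osteoblast transcription factor (-0.60, -1.01 to -0.19). PTH1R, the parathyroid hormone receptor, had a ratio of -0.52 (-0.68 to -0.36) and RUNX2 -0.37 (-0.62 to -0.12). At the other end were WNT10B (0.30, -0.07 to 0.67) and VDR (0.19, -0.20 to 0.58), whose intervals spanned no change.

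Other genes of the osteoclast pathway were described from 3 lists of signalling, transcription and resorption genes. Of 9 signalling genes compared, 8 had a ratio below 0, as did 8711 of the 16331 features, and the median of the list was -0.24. The interval of 1 gene lay below no change, beside 14.5% of all features. That gene was CSF1R, the receptor for the growth factor of osteoclast and macrophage precursors, with 8.02 RPKM in the heterozygous SV and 5.81 RPKM in the homozygous SV (-0.47, -0.70 to -0.24). CSF1, its ligand, had the lowest ratio, -0.85, from 6 and 3 recovered reads, with an interval from -3.48 to 1.38. These are the smallest reads that fit its values, at a length of 94 bases. True reads may be a multiple, so whether CSF1 differed beyond counting error cannot be said. TREM2, a costimulatory receptor, had 2.18 and 1.53 RPKM (-0.51, -1.69 to 0.61). The highest ratios were those of TEC, a kinase of precursors (0.21, -0.28 to 0.70), and TRAF6, which relays the signal of TNFRSF11A (-0.03, -0.28 to 0.21). SIGLEC15, a receptor of mature osteoclasts, was listed at 0 in both libraries.

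Of 11 transcription factors compared, 1 had an interval below no change, MITF itself, beside 14.5% of all features. The interval of 1 gene lay above, beside 11.2%. That gene was FOS, which is needed for osteoclast formation, with 9.19 and 13.1 RPKM (0.52, 0.21 to 0.83). The list had a median of -0.04. NFATC1, the master regulator of the lineage, had 7.40 RPKM in the heterozygous SV and 6.89 RPKM in the homozygous SV (-0.10, -0.34 to 0.14). SPI1 (PU.1), a factor of the precursors, had 7.74 and 7.51 RPKM. TFE3 and TFEB, relatives of MITF, had 34.9 and 32.9 RPKM (-0.09, -0.22 to 0.04) and 16.3 and 15.3 RPKM (-0.09, -0.26 to 0.07). IRF8, an inhibitor of osteoclast formation, had the lowest ratio at -0.66 (-1.64 to 0.28), from 28 and 16 recovered reads. These are the smallest reads that fit its values, at a length of 379 bases, and may be higher. Whether IRF8 differed beyond counting error therefore cannot be said. RELB was next to FOS at the upper end (0.29, -0.29 to 0.88).

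Of 13 genes of the resorption machinery compared, 4 had an interval below no change, beside 14.5% of all features, and 3 above, beside 11.2%. These shares were 22.2% and 19.7% among features with at least 1000 reads. The median of the list was -0.03. ATP6V0D2, the proton pump subunit most typical of osteoclasts, was highest with 1.51 RPKM in the heterozygous SV and 2.37 RPKM in the homozygous SV, from 51 and 72 reads (0.65, 0.11 to 1.2). PLEKHM1, which guides lysosomes to the resorbing surface, had a ratio of 0.18 (0.04 to 0.33). CA2, the carbonic anhydrase that supplies protons and is abundant in the cochlear wall as well, had 368 and 388 RPKM (0.07, 0.04 to 0.10). The lowest ratios were those of SNX10 (-0.37, -0.85 to 0.11) and TCIRG1, the pump subunit of the ruffled border (-0.26, -0.47 to -0.05), and MMP14 (-0.26), SLC4A2 (-0.16) and CKB (-0.15) were also below no change. ITGB3, the vitronectin receptor subunit of osteoclasts, had 9.15 and 8.94 RPKM (-0.03, -0.24 to 0.17). CLCN7, the chloride channel of the ruffled border, had 1 read in the heterozygous SV and 0 in the homozygous SV. In these 3 lists 0 of the genes compared were at least 2-fold apart, beside 3.99% of all features.

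Markers of other cells that share these genes were measured in the same libraries. Of 10 macrophage genes compared, 0 had an interval that excluded no change, beside 25.7% of all features. The median was -0.10, and the summed RPKM of the list was 79.7 in the heterozygous SV and 77.5 in the homozygous SV. C1QA, a complement gene of tissue macrophages, had 12.3 and 11.2 RPKM, and CD68, a lysosomal protein of macrophages and osteoclasts, 7.22 and 6.63 RPKM (-0.12, -0.54 to 0.29). The lowest ratios were those of ITGAM (-0.42, -0.89 to 0.04) and CD14 (-0.33, -0.73 to 0.07), and the highest those of LYZ (0.52, -0.07 to 1.13) and MSR1 (0.28, -0.35 to 0.91). The macrophage list thus had a similar sum in both SVs, while CD163 was near 0 in both, with 2 reads and 1 read. This sum leaves out CSF1R, which is also a gene of macrophage precursors and was counted among the signalling genes. CSF1R was lower in the homozygous SV (-0.47, -0.70 to -0.24). Beside MMP9, the neutrophil list had a summed RPKM of 8.18 in the heterozygous SV and 5.41 in the homozygous SV, and 8 of its 10 genes were below 1 RPKM in both libraries. The defining neutrophil genes CAMP, at 0 in both, MPO, with 7 and 2 reads, and S100A8, with 4 and 2 reads, were at or near 0. Both neutrophil genes compared, ELANE (-0.43, from 15 and 10 reads) and AZU1 (-1.72, from 11 and 3 reads), had intervals that spanned no change. The reads of ELANE are the smallest that fit its values, at a length of 201 bases, and may be higher. LTF, below the minimum, had 6 and 15 reads. Of 8 cartilage genes compared, 5 had an interval below no change, beside 14.5% of all features and 22.2% of those with at least 1000 reads. Their median was -0.22. ACAN, the proteoglycan of cartilage (-0.61, -0.76 to -0.46), and MATN3 (-0.55, -1.27 to 0.15) were lowest, and HAPLN1 (0.12, -0.01 to 0.26) and COL11A1 (-0.06, -0.08 to -0.04) highest. Genes of melanocytes, the pigment cells of the SV, were at least 2-fold lower in 7 of 9 compared (TYR, DCT, PMEL, SLC45A2, RAB38, TRPM1 and EDNRB), beside 2.2% of all features. Their median was -5.11. The other 2 were KIT, with 43.6 and 44.2 RPKM (0.02, -0.06 to 0.09), and SOX10 (-0.21, -0.58 to 0.16), whose intervals spanned no change. The part of these cells in the ratios of MMP9, CTSK and TNFRSF11B was not tested.

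**Figure D4:**
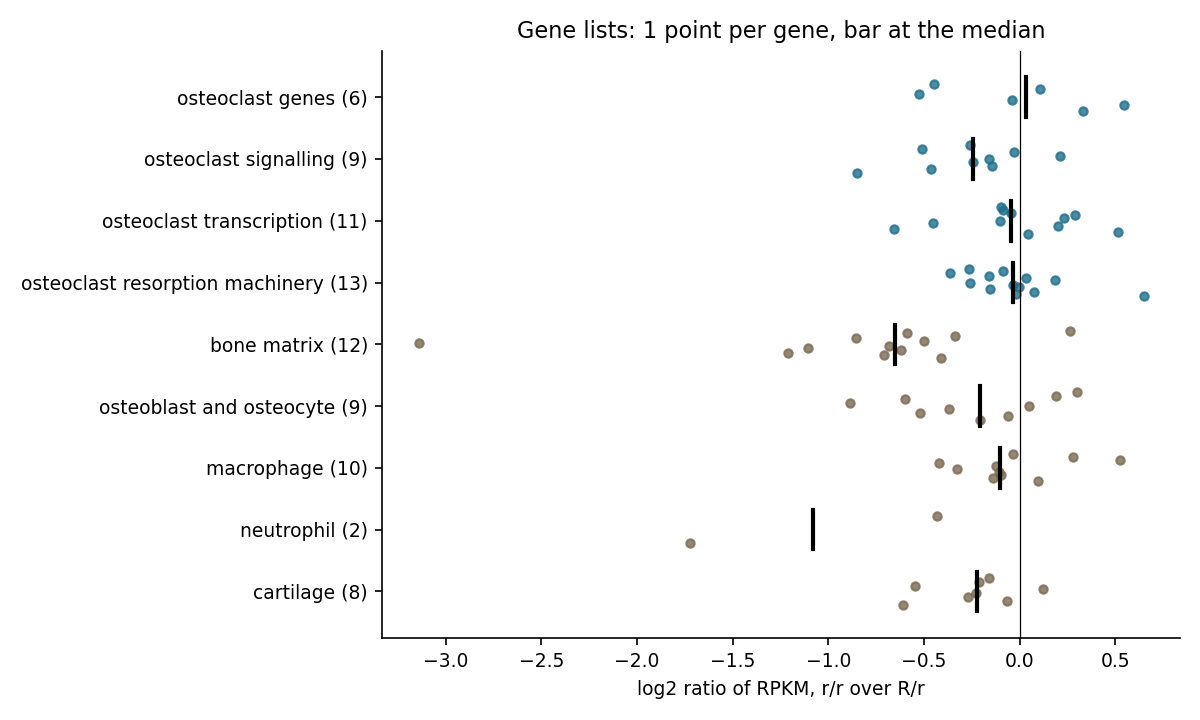
Log2 ratio of RPKM, r/r over R/r, for the genes compared in each list (1 point per gene, number of genes in brackets, black bar at the median), osteoclast lists in blue and other lists in brown. The bone matrix list is centred at -0.65, whereas the medians of the 4 osteoclast lists lie between -0.24 and 0.03, and the neutrophil bar rests on 2 genes with few recovered reads.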

How the data were processed

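RNA of the cochlear lateral wall was sequenced in 1 Mitf R/r and 1 Mitf r/r library. The authors filtered paired reads, mapped these against Sscrofa10.2 using TopHat2 (2.0.7), and deposited RPKM values per gene, already scaled to gene length and library depth. The counting program and annotation are not given in the sources used here. A further 2 columns without headings were not used.

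The RPKM values were converted back to whole reads. Features with equal reads gave the commonest ratio of low values, 1.11, library totals were those that made gene lengths whole (61.9% of 3000 features used), and the smallest whole reads giving both values were found for 100% of 20862 features above 0. True reads may be a multiple of them, and intervals would then be narrower. A single read on 1 kb was worth 0.0632 RPKM in the R/r and 0.0701 RPKM in the r/r library. The steps were also run on simulated data built from the recovered lengths and reads, which cannot show whether these lengths and reads are the true ones.

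Ratios within a gene or library had exact Clopper-Pearson intervals, differences between ratios exact conditional intervals of the odds ratio, and levels exact Poisson intervals, all at 95% and for counting error only, since reads are not independent molecules. For the shares of all features above the pooled bone value, each feature's own interval was set against that value, which gives the same 5 of 6 osteoclast genes. The floor for 0 was 3 reads. Of several features with 1 symbol, that with the highest mean was taken. All 10 osteoclast genes were named, with the 2 lowest and 2 highest ratios of each companion list, bone genes, and genes at least 2-fold apart, and others are given for their role and were chosen after their values were seen. The osteoclast genes and lists were chosen with earlier results of these data known. Alternatives were pseudocounts, minimums, scalings, fold thresholds, summed features, summed RPKM and reduced lists. No coordinates are given, as only annotation of another assembly was used. The software was Python 3.11.15 with scipy 1.17.1, numpy 2.4.6, pandas 2.3.3, and for plots matplotlib 3.10.9.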

Additional observations from a re-analysis of the deposited data

How the results depend on the processing

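No paired analysis was possible because each genotype had 1 library. The osteoclast genes' median log2 ratio of 0.03 became -0.31 when RPKM values were summed over the 10 genes, by construction, since TNFRSF11B, CTSK and MMP9 make up most of the sum, and its distance from the bone matrix became 0.29 in place of 0.68. That median was -0.0015 under TPM scaling and -0.04 with a minimum of 5 RPKM, so its sign depended on the setting. With no minimum RPKM value, 1 gene was at least 2-fold lower (TNFSF11, from 7 reads) and 1 higher (DCSTAMP, from 3 reads), and by the counting interval 2 were lower and 1 higher. Adding the further Ensembl feature, an alternative chosen after seeing the data, gave TNFRSF11B a ratio of -0.35. Of 152 alternative values, 143 stayed within counting error of the value reported or within 1.5 times the count. For list medians and their difference, this margin came from the interval widths of single genes, not from the error of a median. It was therefore loose. The neutrophil median counted as unchanged on moving from -1.08 to -0.43 without genes under 20 reads, as did the osteoclast median on changing sign under TPM scaling. Under the pseudocounts and scalings the ratio of MMP9 ranged from -0.56 to -0.51 and that of CALCR from 0.48 to 0.56, and the bone matrix median ranged from -0.69 to -0.60 over all settings run. Scaling removed shifts of -0.02 (median), -0.01 (upper quartile) and 0.04 (TPM) from all features. Depth limits TNFSF11, DCSTAMP, OSCAR and OCSTAMP, for which no difference was detectable.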
